A study of Mus musculus with 137 samples.

Results

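The comparison described here set the lungs of old mice taken 35 days after bleomycin against the lungs of old mice taken 35 days after saline. Libraries were chosen by their titles alone, and 10 belonged to it, 4 from bleomycin lungs and 6 from saline lungs. They make up 2 of the 26 groups and 7.3% of the libraries of the series. All mice of the series were male C57BL/6J with no engineered allele named. The old mice were 21 months old, and bleomycin was given into the trachea at 0.63 mg/kg, while the saline mice received NaCl by the same route. Untreated old lungs from day 0 numbered 5 and serve below as a second reference. Each library came from the flash-frozen lung tissue of 1 sample, was built with a poly-A kit and was deposited as read counts per gene. The series was designed to follow fibrosis as it resolves with time, at both ages. The young mice set beside the old ones below were 8 to 12 weeks old, and their bleomycin dose was 0.7 mg/kg. All 18396 genes with enough counts were tested, and gene groups are described over 70 lists that cover 895 of them.

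Bleomycin breaks DNA strands, and the lung clears it poorly, so a dose to the airway injures alveolar epithelium and capillaries. Fibroblasts then lay down collagen and fibronectin, macrophages recruited from blood monocytes join those of the airspace, and alveolar type 2 cells pass through a transitional state on the way to type 1 cells. In mice much of this scar is known to be removed again by proteases, by phagocytes and by loss of the matrix-producing fibroblasts, and this removal is known to be slower with age.

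A level below is in CPM, that is, read counts brought to the same library size by TMM scaling, and a difference is a log2 fold change of bleomycin over saline ± its standard error (SE). A gene is called when its p from the edgeR quasi-likelihood test, adjusted by Benjamini-Hochberg over all 18396 genes, is below 0.05. Only called genes are said to rise or fall. A list is described by its counts and its median log2 fold change, and a list score averages log2 CPM over the members in 1 lung. The background for each count is the share over all genes tested, 16.2% for rises and 13.4% for falls. The bleomycin lungs are numbered 1 to 4. The p-values rest on the spread between lungs within groups, taken over all groups of the series and not the compared lungs alone. In whole-lung RNA, fewer cells of a type and less RNA per cell cannot be told apart.

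Depth was even. The 10 libraries held 18.38 to 23.26 M counted reads, and the series as a whole 14.91 to 31.02 M. Surfactant protein C (Sftpc), made by alveolar type 2 cells, stood at 11019 CPM or more in each of the 10 lungs. No pair of the 10 libraries was alike within sampling noise. Bleomycin lung 3 is 1 of 5 libraries of the series that stood apart from the rest of their groups in earlier work on these data. Its mean distance to the saline lungs over all genes was the largest of the 4, with lung 1 next, and lungs 2 and 4 stood at 85.2 and 69.7, against 57.9 to 63.6 for the saline lungs among themselves. Without lung 3 the number of called genes was 3478, and without all 5 libraries 4393. Mitochondrial transcripts made up 0.94% to 1.15% of reads in the bleomycin lungs and 1.25% to 1.37% in saline. The part of these differences in the results was not tested.

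Of the 18396 genes, 5443 were called (29.6%): 2987 rose (16.2%) and 2456 fell (13.4%). At an unadjusted p below 0.05 there were 7423 (40.4%). Most changes were small. The median called rise was 0.48 and the median called fall -0.54 on the log2 scale. At least 2-fold rises numbered 718 and falls 419, and at least 4-fold rises numbered 219 and falls 43, so large changes were mostly rises. The median over all genes was 0.00. Among 15424 protein-coding genes 18.5% rose and 14.2% fell, while among 2136 long non-coding genes 3.6% rose and 10.5% fell. Of 177 antibody variable segments 38 rose (21.5%), a share near the 18.5% of protein-coding genes, and 0 fell.

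The lungs did not contribute equally. All 4 bleomycin lungs lay above all 6 saline lungs for 1684 genes (9.15% of those tested) and below for 1488 (8.09%), whether called or not. Among genes that rose, 51.5% had all 4 lungs above the saline range and 37.3% had 3. Lung 4 was the one closest to saline. It lay above the saline range for 59.8% of the risen genes, against 95% for lung 1, 89.4% for lung 2 and 94.2% for lung 3. The median distance of risen genes from the saline mean was 0.63, 0.40, 0.59 and 0.20 on the log2 scale in lungs 1 to 4, and that of fallen genes -0.68, -0.44, -0.73 and -0.25. Lungs 1 and 3 led in different genes: lung 1 was the most extreme for 46.8% of the risen genes and lung 3 for 46.2%.

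**Figure D1:**
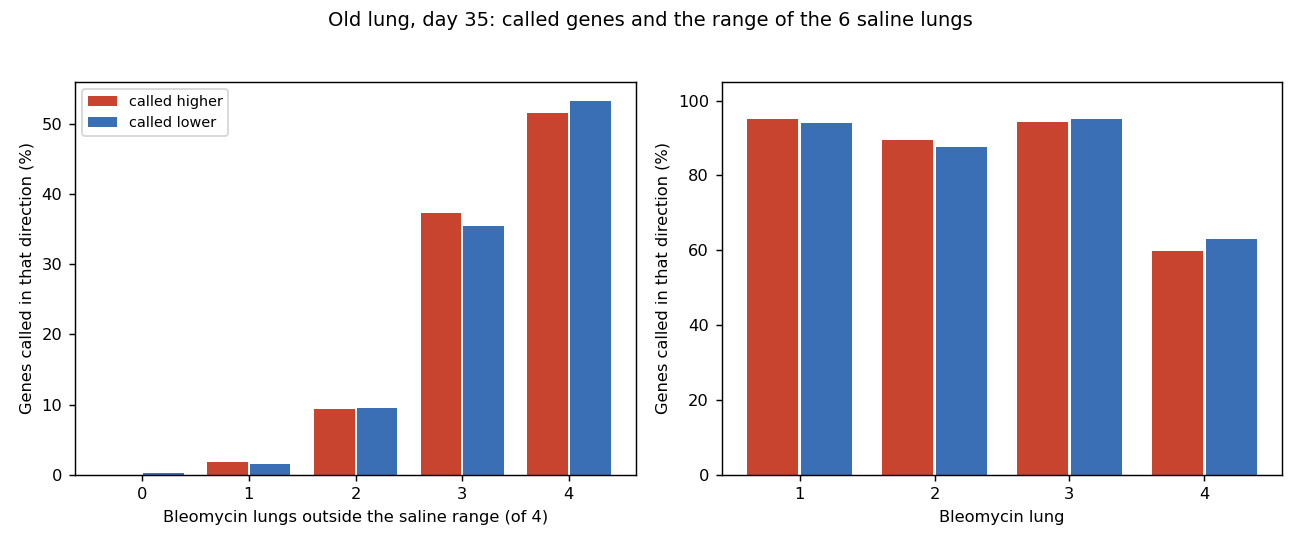
Share of the called genes by the number of bleomycin lungs that lie outside the range of the 6 saline lungs in the direction of the call (left), and share of the called genes for which each single bleomycin lung lies outside it (right), in percent, for risen and fallen genes. Lung 4 lies outside for 59.8% of risen and 63% of fallen genes, and lungs 1 to 3 for 87.6% or more.

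The largest rises without overlap between the groups were led by Grem1, Chl1 and Saa3. Grem1 (chr2:113746164-113758646, minus strand), which encodes the secreted BMP antagonist gremlin 1, measured 24.1, 13.6, 91.8 and 3.08 CPM in bleomycin lungs 1 to 4 and 0.251 to 0.918 CPM (median 0.541) in saline. Every bleomycin lung stood above every saline lung, and lung 3 was far above the other three. The rise was 5.96 ± 0.69 with adjusted p = 1.75e-11. Chl1, a neural cell adhesion molecule, rose by 5.31 ± 0.70 and Saa3, an acute-phase serum amyloid, by 4.78 ± 0.57. Saa3 was highest in lung 1, with 239, 48.2, 138.7 and 12.7 CPM, against 2.72 to 6.35 CPM (median 3.44) in saline. Cemip, which takes part in hyaluronan breakdown, rose by 4.40 ± 0.64, and Kng2, a kininogen, by 3.79 ± 0.68. The other members of this set were Megf11 (3.99 ± 0.56), the fibrillar collagen chain Col24a1 (3.98 ± 0.49), the secreted Wnt modulator Dkk2 (3.84 ± 0.56), Tnc, Spp1, Thbs4 (3.64 ± 0.58) and the collagen prolyl hydroxylase subunit P4ha3 (3.59 ± 0.49). All of these genes except Saa3 were highest in lung 3, and lung 4 was the lowest bleomycin lung for each of them.

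Most genes of the pathologic fibroblast list were raised. Of 12 members tested, 11 rose and 0 fell (median 2.74). The list does not mark fibroblasts alone: Spp1 is also on the scar-associated macrophage list and Lcn2 on the transitional alveolar epithelium list. The list score was 6.42, 6.10, 7.58 and 4.93 in bleomycin lungs 1 to 4, against 3.96 to 4.23 in saline, so that no bleomycin lung fell within the saline range. Tenascin C (Tnc, chr4:63959785-64047015, minus strand), a matrix glycoprotein of wounds, measured 167, 199, 815 and 73.8 CPM in lungs 1 to 4 against 21.7 to 34.8 CPM (median 22.9) in saline. The groups did not overlap, and the rise was 3.66 ± 0.43, adjusted p = 2.7e-11. Osteopontin (Spp1, chr5:104435118-104441050, plus strand), secreted by macrophages and stromal cells, measured 2015, 2443, 3429 and 777 CPM against 163 to 184 CPM (median 175). Its 4 bleomycin lungs again all stood above saline (log2 fold change 3.64 ± 0.37, adjusted p = 8.66e-14). Cthrc1, a marker of the collagen-producing fibroblast state, measured 9.53, 7.54, 20.2 and 4.86 CPM against 5.05 to 6.89 CPM (median 5.99) in saline. Lung 4 lay below the whole saline range and lung 3 far above it. The rise of 0.83 ± 0.29 (adjusted p = 0.0226) was no longer called without lung 3, by limma voom, or with the compared groups fitted alone.

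Fibronectin (Fn1, chr1:71585520-71653200, minus strand) measured 1969, 1875, 6122 and 1099.6 CPM in bleomycin lungs 1 to 4 and 513 to 777 CPM (median 661) in saline. All 4 lungs were above saline (log2 fold change 2.09 ± 0.34, adjusted p = 4.66e-07). Of 16 fibrillar and interstitial collagen chains tested, 11 rose and 0 fell (median 0.59). Without lung 3 the count was 6. Col1a1, a chain of the main scar collagen, measured 1018, 934, 3042 and 516 CPM against 342 to 499.8 CPM (median 422). The groups did not overlap, although lung 4 came close to the highest saline lung (log2 fold change 1.70 ± 0.31, adjusted p = 5.52e-06). Col3a1, its partner in young scar, rose by 1.60 ± 0.24 and Col5a2, a chain of the type V collagen that helps to set fibril diameter, by 2.0 ± 0.29. In the matricellular and glycoprotein list 9 of 16 rose, 6 without lung 3, and 0 fell. Thbs2, a thrombospondin of connective tissue, measured 24.7, 19.5, 92.5 and 9.34 CPM against 3.16 to 4.64 CPM (median 4.02). None of its bleomycin lungs overlapped with saline (log2 fold change 3.19 ± 0.47, adjusted p = 3.55e-08). Periostin (Postn), a matricellular protein, measured 292, 341, 389.7 and 298 CPM against 275 to 357 CPM (median 325), with overlap, and was not called (log2 fold change 0.05 ± 0.10, adjusted p = 0.775).

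The enzymes that finish and cross-link collagen followed. In that list 14 of 20 rose and 1 fell (median 0.55), and without lung 3 the rises numbered 7. Adamts2, the procollagen N-propeptidase, rose by 1.18 ± 0.20, and Plod1, a lysyl hydroxylase, by 0.71 ± 0.11. Lysyl oxidase (Lox), which starts the cross-links, measured from 89.7 CPM in lung 4 to 357 CPM in lung 3 against 64.2 to 98.5 CPM (median 72.6). Lung 4 lay inside the saline range, and the rise of 1.26 ± 0.28 (adjusted p = 0.000191) was not called without lung 3. Of 14 elastic fibre genes 9 rose and 2 fell, with 5 rises without lung 3. Elastin (Eln) measured 1574, 1774, 3588 and 776 CPM against 416 to 906 CPM (median 566). Lung 4 was below the highest saline lung and the other three above it (log2 fold change 1.70 ± 0.30, adjusted p = 3.11e-06). Mfap5, a microfibril protein, rose by 1.32 ± 0.20 and Ltbp3, which anchors latent TGF-beta, by 0.59 ± 0.11. Small leucine-rich proteoglycans split, with 5 of 9 up and 3 down. Fmod, the collagen-binding fibromodulin, measured 51.8, 46.7, 128.8 and 27.2 CPM against 9.1 to 14.2 CPM (median 10.5). Its lungs did not overlap with saline (log2 fold change 2.51 ± 0.38, adjusted p = 9.19e-08), and lumican (Lum) rose by 1.79 ± 0.32. Ogn, osteoglycin, measured 174, 175, 151.99 and 227 CPM against 289.9 to 372 CPM (median 328). Here the 4 bleomycin lungs were all below saline (log2 fold change -0.88 ± 0.13, adjusted p = 8.86e-08). In the basement membrane list 9 of 21 rose and 1 fell, with 6 rises without lung 3 and up to 16 under other alternatives. Lama1, a laminin chain of embryonic basement membranes, measured 24, 36.2, 89.2 and 21.8 CPM against 7.05 to 12 CPM (median 8.23). No lung overlapped (log2 fold change 2.27 ± 0.33, adjusted p = 5e-08), and Col4a1, a chain of its collagen network, rose by 0.92 ± 0.18.

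**Figure D2:**
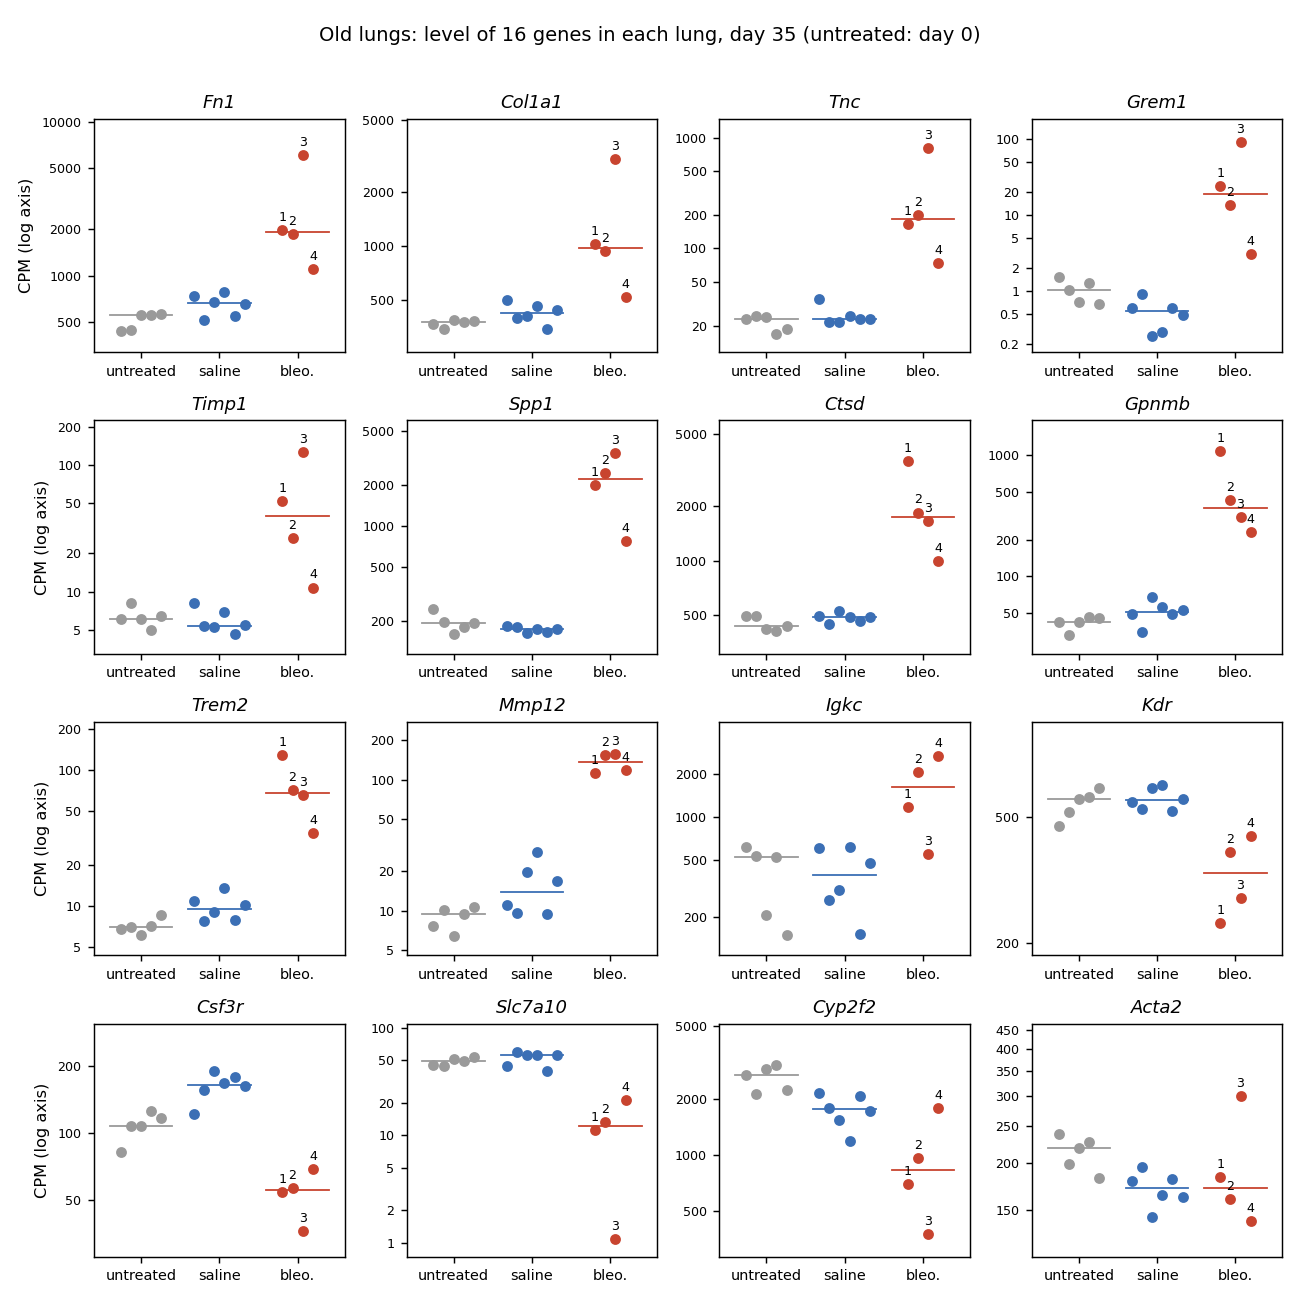
Level of 16 genes in CPM (log axis) in each untreated, saline and bleomycin lung of old mice, untreated from day 0 and the others from day 35, with group medians as lines and the bleomycin lungs numbered. Fn1, Tnc, Grem1, Timp1, Spp1, Ctsd, Gpnmb, Trem2 and Mmp12 show all 4 bleomycin lungs above the 6 saline lungs, Kdr, Csf3r and Slc7a10 show them below, and Acta2 shows overlap.

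Ligands and modulators of the growth factor pathways moved in both directions. Of 18 TGF-beta ligands, activators and targets 12 rose and 2 fell. The ligand gene Tgfb3 rose by 0.76 ± 0.14 and the signalling receptor gene Tgfbr1 by 0.72 ± 0.09. Tgfbr3, the co-receptor betaglycan, fell by 0.83 ± 0.13 on the log2 scale, from 134.3 to 154.2 CPM (median 149.9) in saline to 70.3, 89.5, 68.6 and 104.8 CPM in lungs 1 to 4, with no overlap. In the BMP list 3 of 17 rose, Grem1 among them, and 7 fell. Bmpr2, the type 2 BMP receptor, measured 448, 632, 572 and 736 CPM against 845 to 1066 CPM (median 1016). All 4 lungs were below saline (log2 fold change -0.73 ± 0.13, adjusted p = 4.97e-06), and the ligand Bmp3 fell to a like degree (-0.73 ± 0.12, adjusted p = 8.33e-07). The Wnt list held 8 rises and 5 falls among 20 genes. Sfrp1, a secreted Wnt antagonist, measured 119.9, 79.2, 221 and 41.3 CPM against 25.3 to 35.7 CPM (median 30.1). The groups did not overlap (log2 fold change 1.93 ± 0.30, adjusted p = 2.02e-07), and Wnt7b, an epithelial ligand, rose by 1.31 ± 0.18. Among 17 growth factors of alveolar and vascular repair 4 rose and 6 fell, with 2 rises without lung 3. Igf1, insulin-like growth factor 1, measured 102.4, 87.2, 193 and 42.8 CPM against 15 to 20.9 CPM (median 17.4). Every bleomycin lung was above saline (log2 fold change 2.59 ± 0.30, adjusted p = 1.15e-11). Vegfa, the main endothelial growth factor of the alveolus, measured 860.2, 1123, 925 and 1094 CPM against 1236 to 1382 CPM (median 1335), all 4 below (log2 fold change -0.40 ± 0.09, adjusted p = 0.000126), and Angpt1, a ligand of the endothelial receptor Tie2, fell too (-0.66 ± 0.10, adjusted p = 7.84e-08).

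Markers of alveolar fibroblasts mostly fell, while those of contractile cells mostly did not pass the test. Of 14 alveolar fibroblast and lipofibroblast genes 10 fell and 2 rose (median -0.46). Limch1 measured 662, 917, 712 and 882 CPM against 1171 to 1315 CPM (median 1232). All 4 bleomycin lungs were below saline (log2 fold change -0.64 ± 0.11, adjusted p = 2.24e-06). The 2 risen members were Lpl, lipoprotein lipase (1.53 ± 0.19, adjusted p = 2.1e-10), and Plin2, a lipid droplet coat protein (0.79 ± 0.13, adjusted p = 7.52e-07), and macrophages also express both. In the contractile and myofibroblast list 1 of 12 rose and 2 fell. Smooth muscle actin (Acta2) measured 183, 160.0, 300.4 and 140.01 CPM against 142.9 to 195 CPM (median 172). Lung 3 stood above saline, lung 4 below it and the other two within, and Acta2 was not called (log2 fold change 0.20 ± 0.19, adjusted p = 0.456). Myh11, smooth muscle myosin, fell (-0.56 ± 0.17, adjusted p = 0.0077), and Aspn, asporin, rose (0.47 ± 0.18, adjusted p = 0.032). The Aspn call was lost without lung 1, 2 or 3, without saline lung 3, and without the filter on low counts. Adventitial fibroblast genes split, with 5 of 12 up (3 without lung 3) and 3 down, Cd34 rising (0.73 ± 0.11, adjusted p = 2.65e-07) and Dpp4 falling (-0.49 ± 0.11, adjusted p = 0.000382). In the pericyte list 3 of 12 rose, led by the potassium channel gene Kcnj8 (0.62 ± 0.17, adjusted p = 0.00238), and 2 fell. Those rises numbered 1 without lung 3 or saline lung 6 and 5 without lung 4, and the falls numbered 1 without any 1 of the bleomycin lungs. In the mesothelial list, which marks the pleural lining, 1 of 8 rose, Msln (0.75 ± 0.26, adjusted p = 0.0206). Msln was not called without lung 3, without saline lung 1 or 5, by limma voom, or with the compared groups fitted alone.

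Protease genes rose broadly. Of 15 matrix metalloproteinases 9 rose and 2 fell. Mmp12, macrophage elastase, measured 113.05, 154.5 and 156 CPM in lungs 1 to 3, with lung 4 just above lung 1, and 9.41 to 28 CPM (median 14) in saline. The 4 lungs were close to each other and all above saline (log2 fold change 3.10 ± 0.45, adjusted p = 4.11e-08). Mmp2, gelatinase A of stromal cells, measured 555, 493, 643 and 305 CPM against 125.6 to 203 CPM (median 152.5). It did not overlap (log2 fold change 1.68 ± 0.18, adjusted p = 2.64e-12), nor did its membrane-bound activator Mmp14 (1.64 ± 0.20, adjusted p = 1.61e-10) or Mmp19 (2.05 ± 0.24, adjusted p = 2.61e-11). Mmp9, gelatinase B, which neutrophils store, measured 19.2, 18, 12.4 and 27.9 CPM against 45.1 to 68.6 CPM (median 62.4). Here all bleomycin lungs were below (log2 fold change -1.62 ± 0.37, adjusted p = 0.00029). Inhibitors of matrix turnover rose as well, 7 of 12, while 2 fell. Timp1, the inducible metalloproteinase inhibitor, measured 52, 26.4, 126.95 and 10.8 CPM against 4.59 to 8.15 CPM (median 5.38), all 4 above (log2 fold change 3.19 ± 0.43, adjusted p = 3.01e-09). Serpine2 rose by 1.10 ± 0.20, and Reck, a membrane-anchored inhibitor, fell (-0.84 ± 0.11, adjusted p = 2.08e-09).

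Lysosomal genes rose in nearly every member. Of 12 cysteine and aspartic cathepsins 9 rose and 0 fell (median 1.15), and the 9 had all 4 lungs above saline. Summed over the list, cathepsin levels were 4258 to 11500 CPM in the bleomycin lungs and 2393 to 2668 CPM in saline. Cathepsin D (Ctsd, chr7:142375911-142388038, minus strand), an aspartic protease of the lysosome, measured 3582, 1851, 1667 and 1004 CPM in lungs 1 to 4 against 446 to 527 CPM (median 489). Lung 1 was the highest by far and lung 4 the lowest, with no overlap (log2 fold change 2.06 ± 0.21, adjusted p = 1.04e-13). Cathepsin S (Ctss), which macrophages secrete and use in antigen processing, measured 1742, 939, 975 and 551 CPM against 183 to 224 CPM (median 214). It repeated that order at the ends (log2 fold change 2.32 ± 0.21, adjusted p = 8.63e-16), and cathepsin B (Ctsb) rose by 1.53 ± 0.15. In the list of lysosome and lipid handling genes 17 of 18 rose and 1 fell (median 0.90). Under every alternative run 16 or 17 of them rose. Apolipoprotein E (Apoe) measured 3569, 1961, 2356 and 1331 CPM against 713 to 873 CPM (median 768). No lung overlapped (log2 fold change 1.56 ± 0.15, adjusted p = 9.41e-15). Gla, alpha-galactosidase A, measured 53, 32.3, 29.2 and 20.2 CPM against 13.2 to 15.5 CPM (median 14.4), again without overlap (log2 fold change 1.23 ± 0.13, adjusted p = 3.14e-13), and Gusb, beta-glucuronidase, rose by 1.0 ± 0.11.

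Many lysosomal genes are known to carry an E-box that transcription factors of the TFEB family bind, so the promoters of both lists were searched. The windows were the 250 bases upstream of each start, from RefSeq on GRCm38.p6, and both strands were read. The letters CACGTG were found in 3 of the 11 lysosome and lipid members that had a window (27.3%), in 3 of the 9 cathepsins that had one (33.3%), and in 6.04% of all 27025 windows. TCACGTGA, which contains CACGTG, was found in 1 of the 11, in 1 of the 9 and in 0.803% of all windows. The stretches shown are those of the risen genes Gla (chrX:134601157-134601236, minus strand) and Ctsd (chr7:142387850-142387929, minus strand), and of Lamp1 (chr8:13159081-13159160, plus strand), a lysosomal membrane protein gene chosen for its 4 matches and after values were seen. Each runs 5′ to 3′ on the gene's strand, with every CACGTG in capitals.
Ctsd: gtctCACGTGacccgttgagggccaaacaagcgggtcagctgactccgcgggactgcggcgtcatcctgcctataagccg
Gla: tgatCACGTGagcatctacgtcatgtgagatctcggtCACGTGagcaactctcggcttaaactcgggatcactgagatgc
Lamp1: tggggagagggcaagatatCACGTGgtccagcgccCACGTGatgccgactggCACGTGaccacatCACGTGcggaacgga
A match describes letters in a window and shows no binding in these lungs.

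The macrophage lists differed in their counts. Of 20 genes of monocyte-derived and scar-associated macrophages 16 rose, all with 4 lungs above saline, and 1 fell (median 1.60). The list score was 7.92, 7.43, 7.75 and 6.89 in bleomycin lungs 1 to 4, against 5.84 to 6.10 in saline. Gpnmb, a glycoprotein of lipid-laden macrophages, measured 1091, 424, 309 and 234 CPM against 34.3 to 67.9 CPM (median 50.7). Every lung was above saline and lung 1 the highest (log2 fold change 3.32 ± 0.30, adjusted p = 5.23e-16). Trem2, a lipid-sensing receptor of such cells, measured 129.6, 70.8, 66 and 34.2 CPM against 7.76 to 13.5 CPM (median 9.55). The order of the lungs was the same (log2 fold change 2.93 ± 0.25, adjusted p = 6.35e-17). In the alveolar macrophage list 7 of 14 rose and 6 fell, and without lung 1 the rises numbered 4. Fabp5, a fatty acid-binding protein, rose (1.11 ± 0.17, adjusted p = 1.75e-07), while Ear1, an eosinophil-associated ribonuclease that alveolar macrophages express, fell (-1.33 ± 0.26, adjusted p = 2.47e-05), from 17.8 to 22.2 CPM (median 20) in saline to 7.18, 5.6, 8.03 and 10.9 CPM. Fabp1, a fatty acid-binding protein also on that list, fell further (-2.88 ± 0.48, adjusted p = 1.05e-06). The alveolar macrophage list does not mark these cells alone. Fabp5 is also on the scar-associated macrophage list, Mrc1 on the interstitial, Car4 on the aerocyte capillary and Cidec on the fat list. Interstitial and perivascular macrophage genes held 4 rises and 2 falls among 12, with the mannose receptor Mrc1 rising (0.80 ± 0.16, adjusted p = 4.66e-05) and 1 fall left without lung 3. Monocyte genes held 4 rises and 3 falls among 12, with Csf1r, the receptor for macrophage colony-stimulating factor (0.50 ± 0.10, adjusted p = 5.2e-05), and the Fc receptor Fcgr4 (1.41 ± 0.31, adjusted p = 0.000196) among the rises. Without lung 3 the monocyte falls numbered 1.

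Secreted immune mediators rose more often than not. Of 23 chemokines 14 rose and 1 fell. Ccl2, which draws monocytes, measured 13.1, 6.26, 19.9 and 5.45 CPM against 1.62 to 3.12 CPM (median 2.39). Lung 3 was the highest and no lung overlapped (log2 fold change 2.21 ± 0.35, adjusted p = 2.83e-07). Ccl6, a macrophage chemokine, measured 765, 494, 642 and 443 CPM against 183 to 280.3 CPM (median 225), all 4 above (log2 fold change 1.35 ± 0.21, adjusted p = 1.29e-07), and Cxcl16 rose by 0.87 ± 0.11. Among 16 cytokines and alarmins 9 rose and 1 fell. Il33, an alarmin of type 2 cells and fibroblasts, measured 173, 145.7, 126.5 and 144.6 CPM against 55.9 to 95.5 CPM (median 77.6), without overlap (log2 fold change 0.91 ± 0.15, adjusted p = 3.94e-07). Il1rn, the antagonist of the interleukin 1 receptor, rose by 1.42 ± 0.23 and Il1a, its agonist, by 1.04 ± 0.18. In the type 2 response list 6 of 13 rose, such as Il13ra1, a receptor chain for interleukin 13 (0.57 ± 0.10, adjusted p = 8.1e-06), and 2 fell, Gata3 among them (-1.02 ± 0.21, adjusted p = 8.79e-05). Complement genes rose in 12 of 16 and fell in 0. C1qb, a chain of the first complement component, measured 343, 193, 286 and 132.6 CPM against 47.7 to 81.1 CPM (median 53.5), all 4 above (log2 fold change 2.05 ± 0.23, adjusted p = 3.46e-12). C3ar1, the receptor for C3a, rose by 2.05 ± 0.23. MHC class II presentation genes rose in 7 of 11, all with 4 lungs above saline, and fell in 0. Cd74, the invariant chain, measured 2262, 2037, 1857 and 1801 CPM against 1048 to 1432 CPM (median 1299) (log2 fold change 0.64 ± 0.16, adjusted p = 0.000737), with the 4 lungs close together. In the interferon list 3 of 24 rose, a share near the background of 16.2%, and 0 fell. The 3 were Cxcl10 (1.44 ± 0.35, adjusted p = 0.000639), Oas1a (1.05 ± 0.25, adjusted p = 0.000473) and Isg15 (0.70 ± 0.26, adjusted p = 0.0315). The call of Isg15 was lost without lung 1 or lung 3, without saline lung 1 or 2, by limma voom, and without the filter on low counts.

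Lymphoid markers were mixed and the lungs disagreed. Of 18 plasma cell and antibody genes 8 rose and 0 fell (median 1.08). Igkc, the kappa constant region, measured 1169, 2077, 553 and 2691 CPM against 150.7 to 616 CPM (median 389). Lung 3 lay inside the saline range and lungs 4 and 2 were the highest (log2 fold change 2.01 ± 0.55, adjusted p = 0.00298). Jchain, which links antibody polymers, measured 241, 390.1, 165 and 431 CPM against 23 to 159 CPM (median 81.6), with lung 3 just above the highest saline lung (log2 fold change 1.79 ± 0.56, adjusted p = 0.00999). Igha, the constant region of IgA, measured 903, 1252, 915 and 466 CPM against 43.9 to 499 CPM (median 304) and was not called (log2 fold change 1.63 ± 0.67, adjusted p = 0.0563). The B cell list had 0 rises and 0 falls among 12 by edgeR and by DESeq2, 0 at an unadjusted p below 0.05 by edgeR, and 7 falls without lung 4. Its score was 3.05, 3.92, 1.94 and 4.91 in bleomycin lungs 1 to 4, against 2.97 to 5.11 in saline, so lung 3 was below and the others within that range. Pax5, the B cell identity factor, measured 6.13, 17, 3.02 and 40.5 CPM against 10.8 to 55.2 CPM (median 28.1) and was not called (log2 fold change -0.85 ± 0.45, adjusted p = 0.147). Cxcl13, which gathers B cells into follicles, rose (1.27 ± 0.39, adjusted p = 0.0096), a call lost without lung 1. T cell genes rose in 2 of 18 and fell in 0: Tnfrsf4, which encodes OX40 (0.61 ± 0.19, adjusted p = 0.0102), and Foxp3 of regulatory T cells (1.0 ± 0.39, adjusted p = 0.0411). The Foxp3 call was lost without lung 2, 3 or 4, without saline lung 1, 2, 3 or 5, and without the filter on low counts. In the cytotoxic and NK list 0 of 13 rose and 3 fell. Ncr1, the receptor NKp46, measured 0.105, 0.887, 0.189 and 1.82 CPM against 2.3 to 3.4 CPM (median 3.08). All 4 bleomycin lungs were below saline (log2 fold change -1.96 ± 0.50, adjusted p = 0.00137), and the granzyme Gzma fell as well (-1.98 ± 0.58, adjusted p = 0.00592). In the dendritic list 6 of 13 rose and 1 fell, with Fscn1, an actin bundler of mature dendritic cells (1.46 ± 0.18, adjusted p = 2.44e-10), and Batf3, a factor of cross-presenting cells (1.04 ± 0.23, adjusted p = 0.000217), among the rises.

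Neutrophil genes fell against saline. Of 14 members 0 rose and 7 fell, the 7 with all 4 lungs below saline, and the median was -1.19. Csf3r, the receptor for granulocyte colony-stimulating factor, measured 54.5, 56.8, 36.4 and 69.1 CPM in lungs 1 to 4 and 121.9 to 189.8 CPM (median 165) in saline. It was lower in every bleomycin lung (log2 fold change -1.58 ± 0.38, adjusted p = 0.000577). The untreated old lungs measured 82.7 to 125.9 CPM, above every bleomycin lung and overlapping with saline only at its lower end. G0s2, a lipase inhibitor that neutrophils express, fell too (-1.07 ± 0.24, adjusted p = 0.000256), and it is also on the alveolar fibroblast and lipofibroblast list.

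Epithelial lists had unlike counts. Transitional alveolar epithelium had 15 rises and 0 falls among 18 genes (median 0.94), and a score of 6.10, 5.81, 6.48 and 5.45 in bleomycin lungs 1 to 4, against 4.82 to 5.13 in saline. Keratin 8 (Krt8), the keratin that marks this state, measured 182, 160.5, 262 and 141.1 CPM against 87.7 to 131.98 CPM (median 117.8). All 4 lungs were above saline (log2 fold change 0.71 ± 0.14, adjusted p = 3.06e-05), with lung 3 highest. Cldn4, a claudin of stressed alveolar epithelium, measured 20.9, 16.6, 64.7 and 10 CPM against 4.42 to 6.56 CPM (median 5.69). It did not overlap either (log2 fold change 2.36 ± 0.41, adjusted p = 3.25e-06). Lcn2, lipocalin 2, measured 1421, 649, 595 and 319 CPM against 121.2 to 189 CPM (median 148.2), with lung 1 highest (log2 fold change 2.29 ± 0.28, adjusted p = 2.44e-10). Clu rose by 1.18 ± 0.14 and Lgals3, which macrophages also make in quantity, by 1.38 ± 0.18.

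Type 2 and type 1 markers stayed nearer to saline. Surfactant and type 2 genes rose in 5 of 15 and fell in 1 (median 0.15). Sftpc itself measured 17776, 16135, 11019 and 13884 CPM against 11562 to 15013 CPM (median 12813). The groups overlapped and it was not called (log2 fold change 0.18 ± 0.20, adjusted p = 0.527). Sftpd, surfactant protein D, measured 1931, 1331, 1082 and 1029 CPM against 650.5 to 883 CPM (median 719), all 4 above (log2 fold change 0.83 ± 0.14, adjusted p = 1.03e-06), and Muc1, an apical mucin, rose by 0.74 ± 0.12. Lyz2, lysozyme of type 2 cells and macrophages, measured 18990, 11210, 7933 and 7988 CPM against 5562 to 6169.5 CPM (median 5752), with lungs 1 and 2 highest (log2 fold change 0.98 ± 0.18, adjusted p = 9.14e-06). In the type 1 list 2 of 12 rose and 1 fell. Ager, the receptor RAGE of type 1 cells, measured 2455, 2549.6, 1927 and 1887 CPM against 1689.5 to 2122 CPM (median 1921) and was not called (log2 fold change 0.21 ± 0.16, adjusted p = 0.327). Cldn18, a lung claudin, rose (0.50 ± 0.13, adjusted p = 0.00239), as did podoplanin (Pdpn, 0.49 ± 0.16, adjusted p = 0.015), which was not called without lung 1, 2 or 3, and caveolin 1 (Cav1) fell (-0.37 ± 0.10, adjusted p = 0.00191).

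Airway lists held falls, but calls in them rested on single lungs. Of 12 club and secretory genes 0 rose and 6 fell, and of 12 ciliated genes 0 rose and 9 fell, with medians of -0.55 and -0.68. The club falls numbered 3 without lung 1 and 1 without lung 3, and the ciliated falls 2, 3 and 0 without lungs 1, 2 and 3 and 3 to 5 without saline lung 1, 2 or 5. With the 2 compared groups fitted alone, 1 club and 0 ciliated genes were called lower. Scgb1a1, the secretoglobin of club cells, measured 8166, 8306, 4466 and 13731 CPM against 8874 to 17157 CPM (median 14389). Lung 4 was inside the saline range and lungs 1 to 3 below it (log2 fold change -0.67 ± 0.23, adjusted p = 0.0206). The untreated old lungs measured 18459 to 25278 CPM, above every saline lung. Cyp2f2, a club cell P450, measured 702, 964, 377 and 1802 CPM against 1198 to 2169.9 CPM (median 1771) with the same split (log2 fold change -0.87 ± 0.27, adjusted p = 0.0102). Hydin, an axonemal protein of cilia, measured 15.1, 21.4, 13.8 and 49.6 CPM against 35 to 75 CPM (median 46.1), lung 4 again within range (log2 fold change -1.01 ± 0.32, adjusted p = 0.0106). These 3 calls were lost without lung 1 and without lung 3. Aldh1a1, an aldehyde dehydrogenase of the airway, fell in all 4 lungs (-0.88 ± 0.19, adjusted p = 0.00012). Foxj1, the ciliogenesis factor, measured 58.5, 47.1, 42.3 and 95.6 CPM against 54.3 to 119.2 CPM (median 74.4) and was not called (log2 fold change -0.42 ± 0.24, adjusted p = 0.17). Goblet and mucous genes had 0 calls in either direction among 10 by edgeR and by DESeq2, and 1 was higher at an unadjusted p below 0.05.

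The scores of the general capillary and aerocyte capillary lists were below the saline range in every bleomycin lung. Of 12 general capillary genes 0 rose and 9 fell, the 9 with all 4 lungs below saline, and the median was -0.58. The list score was 7.74, 8.14, 7.87 and 8.22 in bleomycin lungs 1 to 4, against 8.36 to 8.65 in saline. Kdr (chr5:75932827-75978458, minus strand), the main VEGF receptor, measured 231, 389, 277 and 435 CPM in lungs 1 to 4 and 521 to 632 CPM (median 565) in saline. Lung 1 was lowest and lung 4 highest, still below saline (log2 fold change -0.78 ± 0.15, adjusted p = 2.71e-05). Tek, the angiopoietin receptor Tie2, measured 202, 265, 232 and 314 CPM against 354 to 462 CPM (median 441), all 4 below (log2 fold change -0.74 ± 0.11, adjusted p = 1.32e-07), and VE-cadherin (Cdh5) fell likewise (-0.59 ± 0.11, adjusted p = 1.24e-05). Aerocyte genes fell in 8 of 12 and rose in 1. Ednrb, the endothelin B receptor, measured 24.6, 38.6, 17.9 and 57.4 CPM against 86 to 105.3 CPM (median 92.3), without overlap (log2 fold change -1.44 ± 0.26, adjusted p = 4.29e-06). Car4, the carbonic anhydrase of the capillary surface, measured 69.4, 82.5, 102.5 and 94.1 CPM against 103.9 to 150.7 CPM (median 135.2), all 4 below (log2 fold change -0.60 ± 0.14, adjusted p = 0.000417). The risen member was Igfbp7 (0.78 ± 0.14, adjusted p = 6.79e-06), which fibroblasts and many vessels also express. Arterial genes fell in 5 of 10 and rose in 2, or in 0 without lung 3, with Bmx (-0.78 ± 0.13, adjusted p = 8.82e-07) and ephrin B2 (Efnb2, -0.57 ± 0.13, adjusted p = 0.000313) lower. Venous and systemic-type genes that were called went the other way more often, with 5 of 12 up and 1 down. The median of that list was -0.05. Ackr1, the chemokine-binding receptor of venules, measured 3.35, 1.55, 4.82 and 1.31 CPM against 0.302 to 0.714 CPM (median 0.436), all 4 above (log2 fold change 2.56 ± 0.45, adjusted p = 3.33e-06). Col15a1, a collagen of bronchial-type capillaries that is also on the basement membrane list, measured 58.4, 55.7, 162 and 37.6 CPM against 20.3 to 36 CPM (median 23.5). It did not overlap either (log2 fold change 1.59 ± 0.30, adjusted p = 2.01e-05). Lymphatic genes rose in 3 of 7, in 1 without lung 3, and fell in 1, with Mmrn1 up (0.63 ± 0.16, adjusted p = 0.00108) and Lyve1 down (-0.86 ± 0.24, adjusted p = 0.00388).

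**Figure D3:**
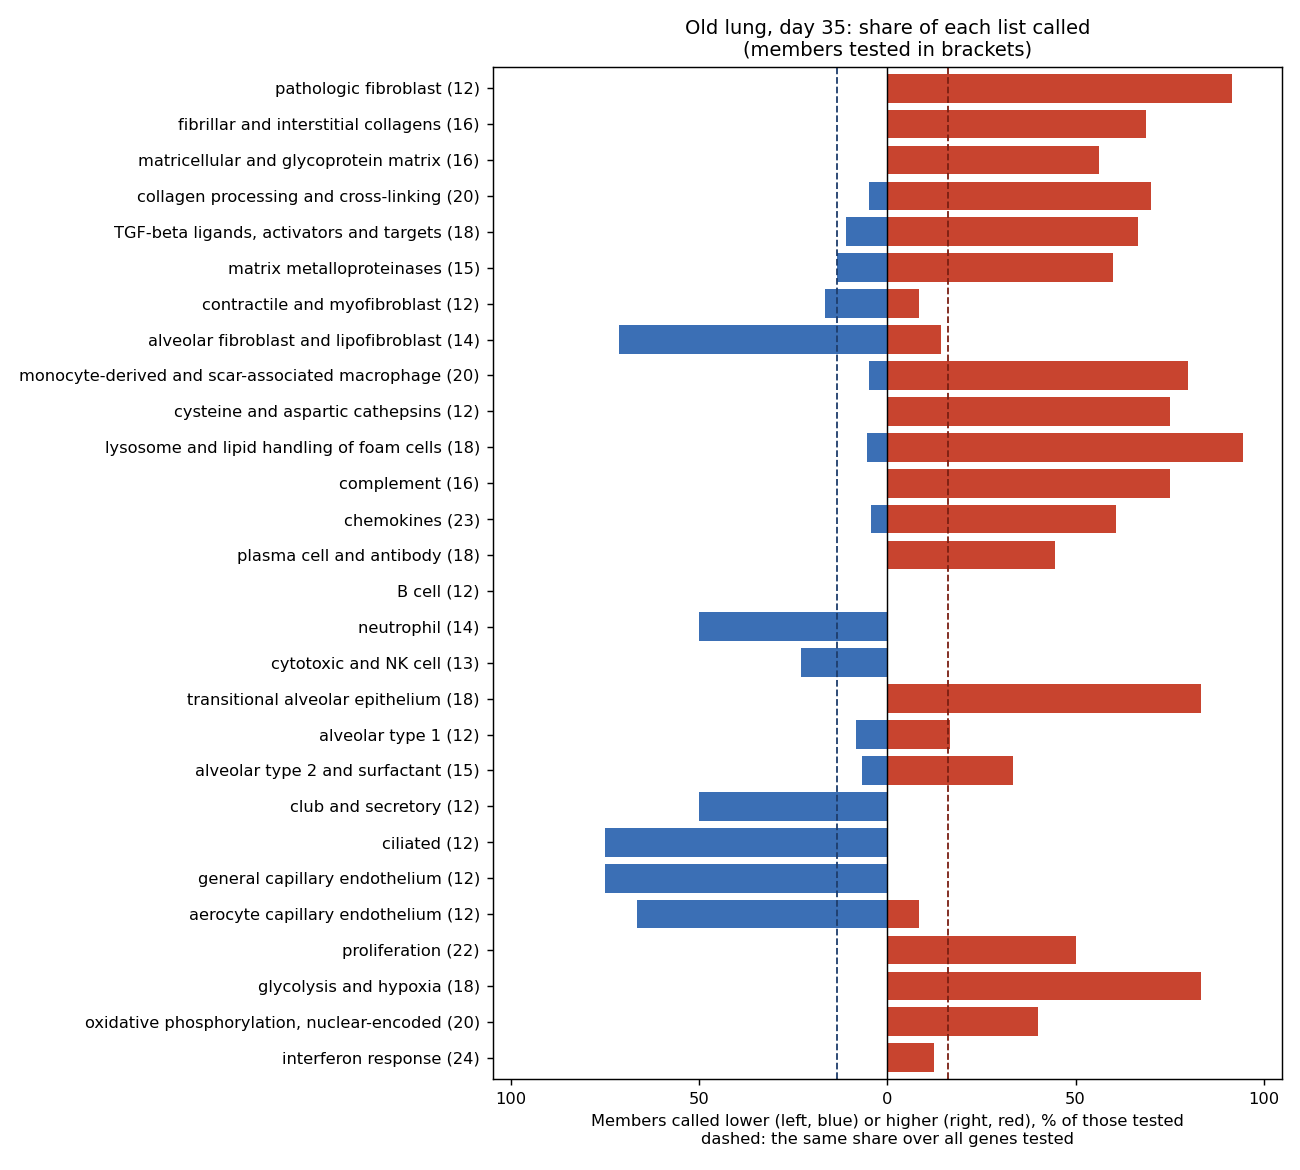
Percent of tested members called higher (right) and lower (left) for 28 gene lists in old bleomycin against old saline lungs at day 35, with dashed lines at the shares over all tested genes, 16.2% and 13.4%. Lysosome, pathologic fibroblast, transitional epithelium and glycolysis lists lie far to the right, and general capillary, alveolar fibroblast and ciliated lists far to the left.

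Cell cycle genes were modestly raised. Of 22 proliferation genes 11 rose and 0 fell (median 0.84), and without lung 3 the rises numbered 5. The list score was 2.66, 2.46, 3.05 and 2.61 in bleomycin lungs 1 to 4, against 1.96 to 2.33 in saline, so all 4 lungs lay above saline. Mki67, the proliferation antigen, measured 14.2, 16.5, 31.1 and 20.8 CPM against 6.99 to 15.6 CPM (median 8.21). Lung 1 lay within the saline range, and the call (log2 fold change 1.18 ± 0.42, adjusted p = 0.0236) was lost without lung 3. Cdk1, the mitotic kinase, measured 3.77, 2.44, 5.1 and 2.45 CPM against 0.9 to 1.57 CPM (median 1.23), with no overlap (log2 fold change 1.46 ± 0.38, adjusted p = 0.00144), and the checkpoint kinase Bub1b rose by 0.96 ± 0.22. Genes of this kind are known to share 2 promoter elements, the CCAAT box and the cell cycle homology region TTTGAA. In the 250 upstream bases, read on both strands, CCAAT was found in 17 of the 20 members with a window (85%) and in 34.5% of all windows, and TTTGAA in 5 of 20 (25%) and in 16.3% of all windows. The stretches shown hold both elements, in capitals: Mki67 (chr7:135716445-135716524, minus strand), Cdk1 (chr10:69352917-69352996, minus strand) and Top2a (chr11:99024192-99024271, minus strand), a topoisomerase gene chosen after values were seen. They are RefSeq sequence on GRCm38.p6, 5′ to 3′ on the gene's strand, and a match on the other strand appears as its reverse complement.
Mki67: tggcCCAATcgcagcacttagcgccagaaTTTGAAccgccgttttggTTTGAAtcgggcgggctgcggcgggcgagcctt
Cdk1: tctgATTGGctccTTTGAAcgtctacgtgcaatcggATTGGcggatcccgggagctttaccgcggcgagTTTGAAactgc
Top2a: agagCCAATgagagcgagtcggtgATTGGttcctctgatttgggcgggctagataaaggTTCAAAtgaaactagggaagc
The motifs were looked for because of the list, and nothing in these counts measures their use.

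The senescence and p53 target lists held more rises than falls. Of 18 senescence and secretory genes 11 rose and 1 fell (median 0.65). The most significant members were Timp1, Mmp12 and Ccl2, given above, which are not specific to senescent cells. Cdkn2a, the locus of the cell cycle inhibitor p16, measured 4.09, 3.71, 4.96 and 3.08 CPM against 0.872 to 1.66 CPM (median 1.19). All 4 lungs were above saline at a low level (log2 fold change 1.67 ± 0.33, adjusted p = 3.68e-05). Of 15 p53 targets 5 rose and 0 fell (median 0.17). The rises numbered 2 without lung 3 and 3 without lung 1 or without saline lung 4, 5 or 6. Cdkn1a, the inhibitor p21, measured 527, 404, 517 and 346 CPM against 232 to 434 CPM (median 268). Lungs 2 and 4 overlapped with the highest saline lung (log2 fold change 0.58 ± 0.15, adjusted p = 0.00121). Ccng1, cyclin G1, rose by 0.44 ± 0.11, a call lost with the compared groups fitted alone. The bleomycin hydrolysis and DNA repair list had 3 rises and 0 falls among 14, a share close to the background. Blmh, the enzyme that inactivates bleomycin, measured 57.4, 52.8, 54.1 and 42.6 CPM against 41.7 to 47.6 CPM (median 44). Lungs 1 to 3 were above saline and lung 4 within (log2 fold change 0.22 ± 0.08, adjusted p = 0.0295). The Blmh call was lost without lung 1, 2 or 3, without saline lung 6, with the compared groups fitted alone, and without the filter on low counts.

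Metabolic lists divided. Glycolysis and hypoxia genes rose in 15 of 18 and fell in 0 (median 0.55), and without lung 1 the rises numbered 9. Ankrd37, a hypoxia-inducible gene, measured 33, 8.7, 36.4 and 7.48 CPM against 3.05 to 5.25 CPM (median 3.63). Lungs 1 and 3 were several-fold above lungs 2 and 4, all above saline (log2 fold change 2.45 ± 0.34, adjusted p = 8.98e-09). Ldha, lactate dehydrogenase A, measured 412, 273, 375 and 229 CPM against 172 to 206 CPM (median 191), also without overlap (log2 fold change 0.76 ± 0.12, adjusted p = 3.99e-07). Nuclear-encoded oxidative phosphorylation genes rose in 8 of 20 and fell in 0, but in 0 of them without lung 1. Cox5a, a cytochrome oxidase subunit, measured 89.3, 63.1, 63.4 and 49.9 CPM against 38.2 to 47.5 CPM (median 43.7), highest in lung 1 (log2 fold change 0.59 ± 0.15, adjusted p = 0.00147). Mitochondrially encoded genes had 0 rises and 1 fall among 6, mt-Nd2 (-0.50 ± 0.16, adjusted p = 0.011), which was not called without lung 3. Oxidative stress and detoxification genes fell in 9 of 22 and rose in 5, and without lung 3 the falls numbered 5. Heme oxygenase 1 (Hmox1) measured 194, 98.2, 105.7 and 60.8 CPM against 36.1 to 47.5 CPM (median 40.7), all 4 above (log2 fold change 1.48 ± 0.18, adjusted p = 1.47e-10), and Sod2, the mitochondrial superoxide dismutase, rose by 0.49 ± 0.07. Fmo1, a flavin monooxygenase, measured 150.6, 209.8, 144.3 and 271 CPM against 363 to 462 CPM (median 441), all 4 below (log2 fold change -1.14 ± 0.18, adjusted p = 2.81e-07). The unfolded protein response list had 4 rises and 0 falls among 17, a share of rises close to the background, with calreticulin (Calr) up (0.39 ± 0.10, adjusted p = 0.00077).

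The largest falls without overlap were of low and moderate abundance. Bex2 (chrX:136066564-136068236, minus strand), a small X-linked gene expressed in brain, measured 3.46, 3.38, 3.17 and 7.82 CPM in lungs 1 to 4 and 27.9 to 39.8 CPM (median 33.2) in saline. The bleomycin lungs were all lower (log2 fold change -2.90 ± 0.40, adjusted p = 5.47e-09). Slc7a10, a small neutral amino acid transporter, measured 11.2, 13.4, 1.09 and 21.3 CPM against 40 to 60 CPM (median 55.5). Lung 3 had the lowest level and lung 4 the highest of the 4, still below saline (log2 fold change -2.14 ± 0.42, adjusted p = 3.38e-05). The transcription factor Hes2 (-2.76 ± 0.43), the cystatin Cst8 (-2.54 ± 0.43), Ankrd63 (-2.45 ± 0.40), the lactate transporter Slc5a12 (-2.37 ± 0.55) and the glucosidase Mgam (-2.21 ± 0.45) completed the set with Fabp1 and a pair of platelet genes. Gp9, platelet glycoprotein IX, measured 0.733, 0.388, 0.236 and 0.634 CPM against 1.35 to 5.19 CPM (median 2.34), and Tubb1, the beta tubulin of platelets, 3.2, 4.38, 2.13 and 6.93 CPM against 7.55 to 31.2 CPM (median 17.5). Both fell without overlap, Gp9 by 2.45 ± 0.69 (adjusted p = 0.00371) and Tubb1 by 2.14 ± 0.58 (adjusted p = 0.00268) on the log2 scale.

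Markers of tissue next to the lung varied between the lungs and were lower after bleomycin in part. Summed over 12 cardiac muscle genes, levels were 63.3 to 356 CPM in the bleomycin lungs and 243 to 447 CPM in saline, with 0 rises and 2 falls. Both fallen genes, Actc1 (-0.97 ± 0.38, adjusted p = 0.0445) and Ryr2 (-0.99 ± 0.37, adjusted p = 0.03), lost their call without lung 1, 2 or 3. They also lost it without saline lung 4 or 5 and without the filter on low counts. Summed over 9 fat genes, levels were 11.3 to 30.5 CPM in the bleomycin lungs and 41.3 to 60 CPM in saline. The list score, which weighs the genes evenly, was 0.55, 0.22, -0.83 and 0.39 in bleomycin lungs 1 to 4, against -0.01 to 1.63 in saline. By that score only lung 3 lay below the saline range. The 2 falls were Cidec (-1.72 ± 0.40, adjusted p = 0.000482), which is also on the alveolar macrophage list, and Adrb3 (-1.17 ± 0.23, adjusted p = 2.87e-05). Red cell genes had 0 calls among 8 by edgeR and by DESeq2 and 0 at an unadjusted p below 0.05 by edgeR, with sums of 56.2 to 85.4 CPM in the bleomycin lungs and 53 to 258 CPM in saline. The part of such tissue or blood in the falls above was not tested.

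Across the 70 lists, the lungs ranked differently by theme. Lung 3 had the highest score of the 4 in 28 lists and the lowest in 23. Lung 1 was highest in the cathepsin list, with scores of 8.69, 8.09, 8.07 and 7.60 in bleomycin lungs 1 to 4, against 6.98 to 7.17 in saline, and lung 3 in the collagen list, with 6.83, 6.89, 7.90 and 6.36 in bleomycin lungs 1 to 4, against 5.89 to 6.25 in saline. Lung 4 was nearest to the saline mean in 33 lists and yet lay outside the saline range in 36. In the antibody list it was the highest, with 5.71, 6.01, 5.11 and 6.07 in bleomycin lungs 1 to 4, against 3.89 to 5.38 in saline. Several counts of list members rested on 1 lung. Without lung 3 the rises numbered 5 among metalloproteinases, 9 among chemokines, 5 among cytokines and alarmins, 2 among dendritic cell genes and 3 among small leucine-rich proteoglycans, and the Wnt list held 2 falls. The proteoglycan falls numbered 1 without lung 1, lung 3 or saline lung 2, and the Wnt falls 3 without lung 1. Single falls in the lysosome and macrophage lists were not called without any 1 of the bleomycin lungs, nor was that of the type 2 list without lung 2 or 3 or that of the cytokines without lung 1. Without lung 1 the rises numbered 1 in the unfolded protein response list and 0 in the bleomycin hydrolysis and DNA repair list.

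**Figure D4:**
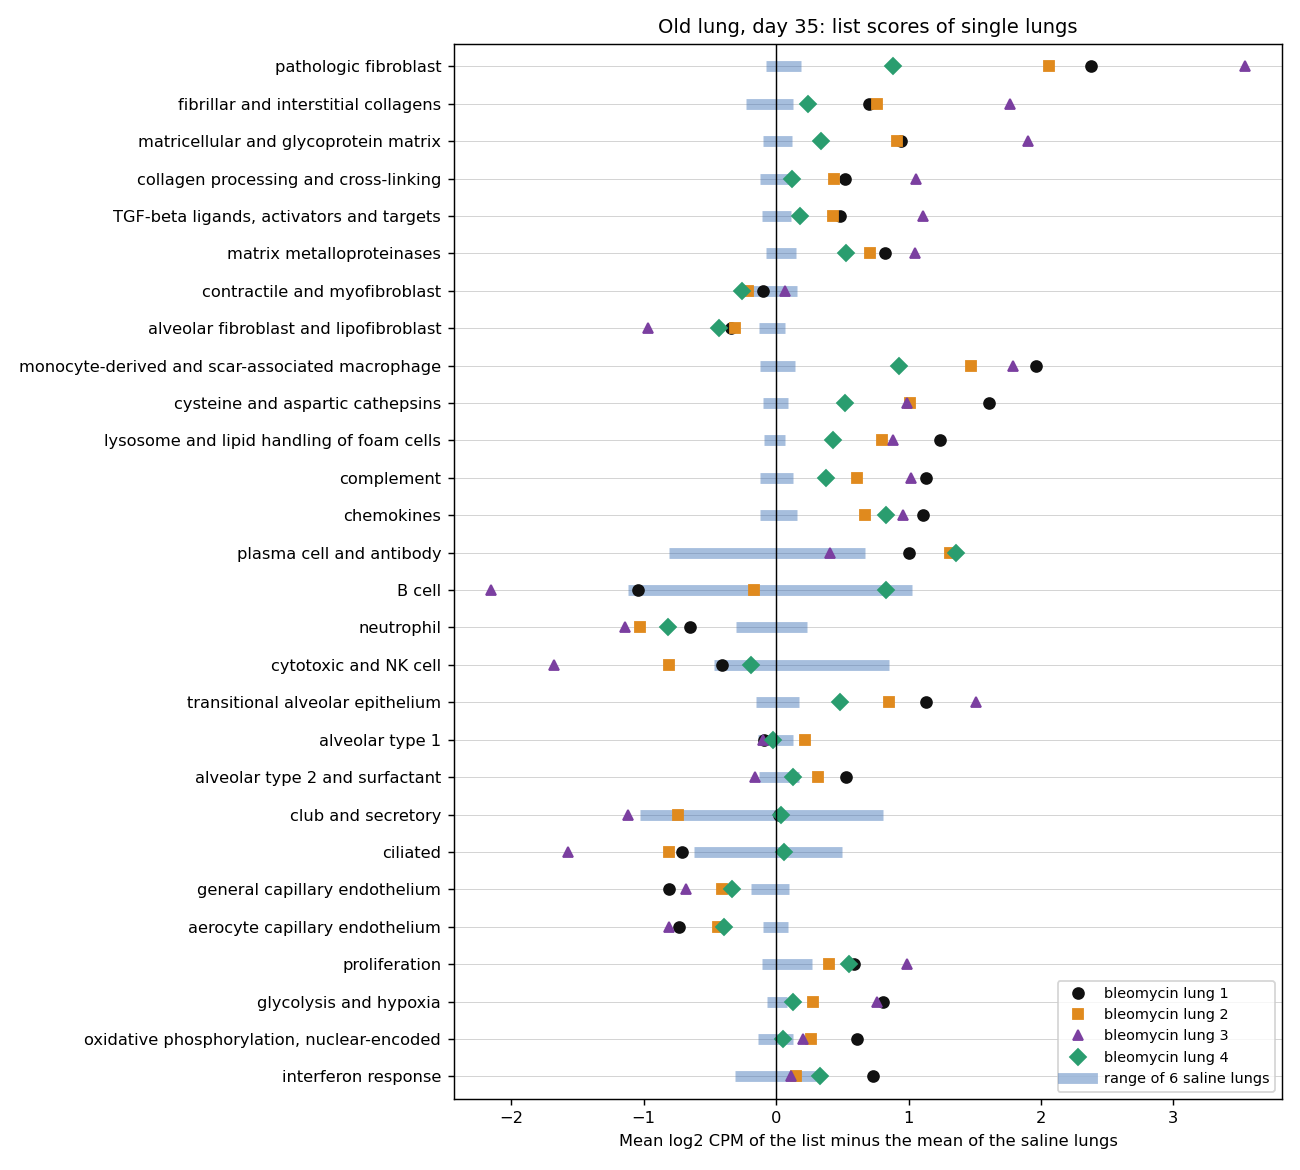
List score (log2 CPM averaged over the members) minus the saline mean for 28 lists, with 1 point for each bleomycin lung and a bar for the range of the 6 saline lungs. For the macrophage, cathepsin, lysosome and capillary lists all 4 points lie outside the bar, and for the B cell list 3 of 4 lie within it.

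The old lungs of the neighbouring days and the young lungs of day 35 give a frame for these values. Each is compared with its own saline lungs, of 5 at day 28, 6 at day 42 and 4 in young mice, and the 4 contrasts share no library. Old lungs at day 28 (5 bleomycin lungs) had 7295 called genes (39.7%), of which rises were 20% and falls 19.7% of the genes tested. Old lungs at day 42 (5 lungs) had 3610 (19.6%; 9.77% rose and 9.85% fell), with 2213 without bleomycin lung 1 and 2128 without bleomycin lung 5 of that day. Young lungs at day 35 (4 lungs, 8 to 12 weeks old, 0.7 mg/kg) had 3626 (19.7%; 10.1% rose and 9.59% fell), with 2307 without young bleomycin lung 3. Of the 5443 genes called in old lungs at day 35, 3848 were called in the same direction at day 28, which is 70.7% of the day 35 and 52.7% of the day 28 genes, and 0 in the opposite one. The count shared with day 42 was 2258 (41.5% and 62.5%), with 6 opposite, and with young lungs 2589 (47.6% and 71.4%), with 1 opposite. Genes that rose at day 35 in old lungs had a median of 0.44 at day 28, 0.23 at day 42 and 0.34 in young lungs. Those that fell had medians of -0.47, -0.29 and -0.36.

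A test of the difference itself found little. The old effect minus the young effect at day 35 was called for 1 gene (0.00544%), day 35 minus day 28 for 2 (0.0109%) and day 42 minus day 35 for 0, by the same edgeR test. At an unadjusted p below 0.05 the counts were 945 (5.14%), 2156 (11.7%) and 2351 (12.8%) genes, and DESeq2 called 0, 10 and 22. No member of the 70 lists was called in any of the 3. The 3 genes called were Svs5, Dlk1 and Serinc5. Svs5, a seminal vesicle secretory protein, had 0 reads in all 4 old bleomycin lungs, and Dlk1, a non-canonical Notch ligand, had 3 to 10. Serinc5, a membrane protein, rose slightly at day 35 (log2 fold change 0.18 ± 0.07, adjusted p = 0.0425) and by 0.64 ± 0.07 at day 28. Its day 35 call was lost under 12 of 16 alternatives, RLE scaling and DESeq2 among them. Age and dose differ together between young and old mice, and their parts cannot be told apart.

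**Figure D5:**
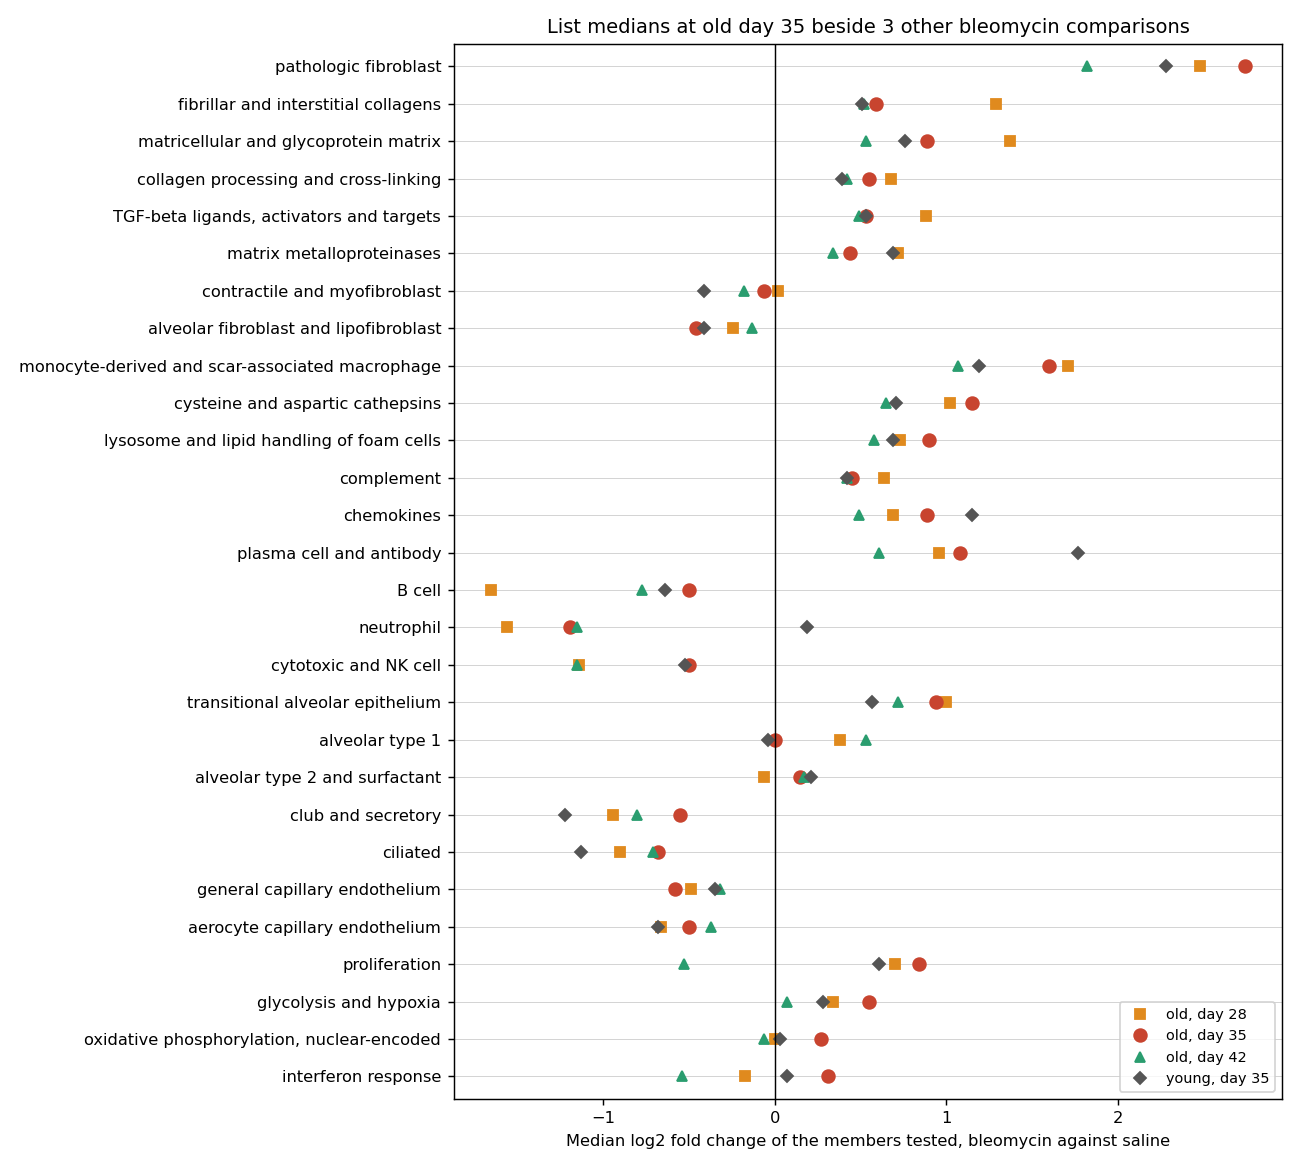
Median log2 fold change of bleomycin over saline for the gene lists in old lungs at days 28, 35 and 42 and in young lungs at day 35. The pathologic fibroblast list has medians of 2.48, 2.74, 1.82 and 2.28, and the general capillary list -0.49, -0.58, -0.32 and -0.35.

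By list, the scar programme was on the same side at each of these points. The pathologic fibroblast list had 12, 11 and 8 rises of 12 at days 28, 35 and 42 in old lungs and 8 in young lungs. Grem1 had log2 fold changes of 4.86 ± 0.66 at day 28, 4.08 ± 0.66 at day 42 and 3.26 ± 0.72 in young lungs. Its bleomycin range in CPM was 6.65 to 65.3 at day 28, 2.69 to 24.4 at day 42 and 2.07 to 32.7 in young lungs. The macrophage list of scar-associated genes had 16, 16 and 17 rises of 20 and 17 in young lungs. General capillary genes fell in 10, 9 and 6 of 12, and in 5 in young lungs. The 6 at day 42 became 3 without bleomycin lung 1 or 5 and 2 without saline lung 2 of that day, and the 5 became 3 without young bleomycin lung 1, 2 or 3. Kdr had -0.77 ± 0.15 at day 28, -0.42 ± 0.14 at day 42 and -0.69 ± 0.16 in young lungs.

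Other lists had counts that differed from point to point. Several rested on 1 library. At day 42 saline lung 6 had the highest proliferation and interferon response scores of its group. Its proliferation score was 4.40 against 1.89 to 2.80 in the other 5 and 2.28 to 2.71 in the bleomycin lungs of that day, and its interferon response score 6.98 against 4.33 to 5.25 and 4.42 to 5.40. Proliferation genes had 9 rises and 1 fall of 22 at day 28 and 11 and 0 at day 35. At day 42 they had 0 and 5, but 1 and 1 without saline lung 6, and 1 to 13 falls when other libraries of that day were left out. In young lungs they had 3 and 0, with 0 to 9 rises when 1 library was left out. Interferon genes had 3 rises and 0 falls of 24 at day 35. At day 42 they had 0 and 12, but 2 and 0 without saline lung 6, and 7 falls without bleomycin lung 1. Glycolysis genes rose in 12, 15 and 1 of 18 on the 3 days and in 6 in young lungs. The 12 became 7 without bleomycin lung 5 of day 28, and the 6 became 3 without young bleomycin lung 2 or 3 or young saline lung 4. Oxidative phosphorylation genes rose in 0, 8 and 0 of 20 and in 0 in young lungs. Neutrophil genes fell in 12, 7 and 12 of 14 on the 3 days in old lungs and in 1 of 14 in young lungs. The 12 at day 28 became 7 without saline lung 1 of that day, and the 12 at day 42 became 2, 6 and 3 without bleomycin lungs 1, 4 and 5 and 2 without saline lung 6. Csf3r measured 36.6 to 81.3 CPM in young bleomycin lungs and 42.4 to 62.8 CPM in young saline lungs. Basement membrane genes rose in 20, 9 and 14 of 21 on the 3 days and in 10 in young lungs. The 9 at day 35 ran from 6 without lung 3 to 16 over the alternatives. The 10 in young lungs became 5 or 6 without young bleomycin lung 1 or 3 or young saline lung 3. Since no single member passed the test of a difference, these counts are descriptions of each point.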

How the data were processed

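Gene-level read counts were deposited by the authors as 1 table of whole numbers for 137 lungs, and no other unit was used. Per the submitters' processing notes the tools were bcl2fastq 2.20.0.422, STAR 2.5.2 or 2.5.2b, featureCounts 1.5.1, RSEM 1.3.0 and FastQC 0.11.5. The builds named there include GRCm38. Their roles are not given in the sources used here, nor are the strand setting and annotation release, so reads of overlapping antisense genes may be mixed. GENCODE M21 gave the symbol and the GRCm38 position of 18348 of the 18396 genes tested. Groups came from sample titles, and replicates were numbered in accession order.

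Genes were kept by filterByExpr (minimum count 10, minimum total 15), scaled by TMM and tested with edgeR 4.0.16 (quasi-likelihood, robust, R 4.3.3) on all 137 libraries in 26 groups with 111 residual degrees of freedom. The common biological coefficient of variation was 16%. An SE is the size of the log2 fold change over the root of its F statistic, so it draws on the spread over all groups. List scores used a prior count of 2. The lowest chi-square per gene over the 45 pairs of the 10 libraries was 7.42, where 1 is sampling noise.

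The members and lists were chosen with earlier results of these data known. The rule for named genes took a panel of 31 genes, the 12 largest rises and 10 largest falls without overlap above an average log2 CPM of 1, up to 3 members of each list by p, and genes called in a difference. Of the list entries 28, under 24 symbols, were not tested. On simulated counts for these 18396 genes, changes were placed only in genes with an average log2 CPM above 1. The test recovered 56% of changes of 0.5 on the log2 scale, 92% of changes of 1 and 100% of changes of 2. Of 178 calls 8 were false. Each gene had the same spread in all lungs, so the rates do not cover lungs that differ in spread, as the bleomycin lungs here may.

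Alternatives were RLE scaling, no filter, limma 3.58.1 voom with quality weights, DESeq2 1.42.0, the compared groups alone, leaving out each library, leaving out libraries 127 and 131 of old bleomycin day 28, and, chosen after seeing the data, leaving out 5 libraries that stood apart and, for the list counts of day 28, day 42 and young lungs, each library of those groups. The labels hold no batch or date.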

Additional observations from a re-analysis of the deposited data

Results flagged for a closer look

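In 5 of 140 groups of list scores, 1 lung stood far from the others of its group by Dixon's test, and chance alone marks about 1 in 20 groups. Saline lung 1 had the highest pathologic fibroblast score of its group, 4.23, with the next at 4.04, and the lowest dendritic cell score, 1.89, with the next at 2.47. Saline lung 4 had the highest score for cytokines and alarmins, 2.81, with the next at 2.62, and for proliferation, 2.33, with the next at 2.08. Bleomycin lung 3 had the highest mesothelial score of the 4, 5.20, with the next at 4.74.

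For 3 genes the size of the bleomycin effect differed between groups by the edgeR test of the difference. For Svs5 the old effect minus the young effect at day 35 was -15.22 (adjusted p = 0.000378). It had 0 reads in all 4 old bleomycin lungs, 38 reads in all over 4 of 6 old saline lungs with up to 25 in 1 lung, 1 to 382 reads in the young bleomycin lungs and 0 in the young saline lungs, so the fitted value is no measure of size. For Dlk1 the old effect at day 35 minus that at day 28 was 10.04 (adjusted p = 0.0275), and 2683 of the 2692 reads in the old saline lungs of day 28 came from 1 lung. For Serinc5 the same difference was -0.47 (adjusted p = 0.0446). In saline it ranged from 103.7 to 116.2 CPM at day 35 and from 72.4 to 89.6 CPM at day 28, and in the bleomycin lungs it had 110.2, 139.9, 131.9 and 120.4 CPM at day 35 and 100.97 to 150.7 CPM at day 28.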

How the results depend on the processing

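The count of 5443 called genes was 5425 with RLE scaling, 4459 without the filter, 7241 with voom, 4322 with the compared groups alone, 5498 with DESeq2 and 4393 without the 5 libraries that stood apart. Voom gave bleomycin lungs 1 to 4 weights of 0.37, 3.78, 0.31 and 0.52, so lung 2 counted most in that group. The saline lungs had weights of 0.98 to 1.70. Leaving out 1 library gave 3478 to 6510, with 3583 without bleomycin lung 1 and 3478 without lung 3. Rises made up 51.3% to 57.8% of calls, and no scaling moved the median of all genes by more than 0.011. The old minus young difference was called for 6 genes with voom, 0 with the groups alone, 0 with DESeq2 and 1 to 2 when 1 library was left out. Day 35 minus day 28 gave 1 with RLE, 0 without the filter, 390 with voom, 0 with the groups alone, 10 with DESeq2, 88 without 2 bleomycin libraries of day 28 whose library numbers lie apart from their group, and 23 without the 5. Leaving out 1 library gave 0 to 69 there: 69 without bleomycin lung 3 of day 35, 43 without lung 4 of day 28, 6 without saline lung 1 of day 28, and 3 or fewer otherwise. Day 42 minus day 35 gave 22 with DESeq2 and 0 to 342 with 1 library left out. These were 58, 12 and 225 without bleomycin lungs 2, 3 and 4 of day 35, 11 without saline lung 5 of day 35, 10 and 1 without bleomycin lungs 2 and 3 of day 42, and 67, 32 and 342 without saline lungs 1, 3 and 5 of day 42, with values between these without lungs 2 and 4. The cause was not tested. Of 210 named genes 199 were called, and 153 were called in the same direction under all 16 alternatives. The most calls lost were 35, without lung 3. Chek2, a checkpoint kinase, had 0.40 ± 0.13 and -0.03 with voom. No paired analysis was possible because lungs of different groups share no number in their titles. Depth and spread limit what can be called at small changes.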

Other observations

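Coagulation and fibrinolysis genes rose in 9 of 19 and fell in 2. F7, the factor that starts coagulation with tissue factor, measured 81.6, 55.6, 87.3 and 36 CPM in bleomycin lungs 1 to 4 and 20.4 to 28.4 CPM (median 23) in saline. All 4 lungs were above saline (log2 fold change 1.44 ± 0.22, adjusted p = 7.26e-08). Procr, the endothelial protein C receptor, measured 28.1, 15.7, 13.9 and 11.4 CPM against 5.1 to 7.95 CPM (median 6.18), with lung 1 highest and no overlap (log2 fold change 1.43 ± 0.15, adjusted p = 5.12e-13). Tfpi2, a matrix-bound protease inhibitor, rose by 1.57 ± 0.28, and F10, a coagulation factor that is also on the monocyte list, by 1.18 ± 0.24. Cholesterol and fatty acid synthesis genes rose in 4 of 20, a share close to the background, and fell in 1. Cyp51, a sterol demethylase, was up (0.59 ± 0.12, adjusted p = 4.78e-05) and Insig1, which holds back sterol synthesis, down (-0.38 ± 0.11, adjusted p = 0.00474). The call of Insig1 was lost without lung 3, and without lung 2 this list held 2 rises and 3 falls.

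Immediate early and heat shock genes fell in 4 of 15 and rose in 1. The falls numbered 1 without lung 1 or lung 3 and 2 without saline lung 3 or 5, and the rise was not called without lung 3 or saline lung 2. Jun measured 223, 270.2, 248 and 328 CPM against 350.1 to 414 CPM (median 388). Every bleomycin lung was below saline (log2 fold change -0.53 ± 0.11, adjusted p = 8.87e-05), and the untreated lungs stood at 355 to 559 CPM. Fosb fell (-1.42 ± 0.49, adjusted p = 0.0195) and ranged from 25.7 to 246 CPM over the untreated lungs, and its call was lost without lung 1 or lung 3. Of 14 clock genes 1 rose and 3 fell, with 1 fall without lung 1 or without saline lung 2, 3 or 4. Bhlhe41, a clock repressor, measured 84.2, 53.1, 35.9 and 42.6 CPM against 21.8 to 29.8 CPM (median 25.4), all 4 above (log2 fold change 1.07 ± 0.15, adjusted p = 3.15e-08). Arntl, the clock activator, fell (-0.40 ± 0.14, adjusted p = 0.0193). The Arntl call was lost without lung 1, without saline lung 2 or 4, by limma voom, and with the compared groups fitted alone. Among 8 neuroendocrine and tuft genes 2 rose (1 without lung 1) and 1 fell (0 without lung 3, 2 without lung 4), with the kinase gene Dclk1 up (0.99 ± 0.17, adjusted p = 1.09e-06), from 12.3 to 19.1 CPM (median 14.4) to 24, 29.7, 40.5 and 22.9 CPM.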
